A study of Mus musculus with 12 samples.

Results

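The genes described here are Trem2 and Tyrobp, a microglial receptor and its signalling adaptor, with 5 genes that act downstream of them, namely Syk, Plcg2, Vav1, Inpp5d and Ptpn6. They were chosen by name, with earlier results of these data known. These 7 of 16482 genes all passed the filter on low counts, as did 12623 genes in all. RNA of 12 whole-brain samples from C57BL/6 mice was measured by MARS-seq in its bulk variant, a method that counts sequence tags from transcript 3' ends. Control mice of postnatal day 40 received phosphate-buffered saline (PBS, 4 samples). Mice of the CBE group received conduritol B epoxide, an inhibitor of the lysosomal enzyme glucocerebrosidase that is used to model neuronopathic Gaucher disease, and replicates 2 and 3 of this group were taken at postnatal day 34 and replicates 4 and 6 at day 40. The CBE+GZ-667161 group received the same agent together with GZ-667161, an inhibitor of glucosylceramide synthase, and gave 4 samples of day 40. The model is drug-induced in a wild-type strain, and no group received GZ-667161 alone. The labels give no dose or sex and do not say that the samples of a group came from separate mice, so the p-values measure only the spread between these samples.

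TREM2 is a receptor for lipids, lipoproteins and other polyanionic ligands that in the healthy brain is made mainly by microglia. It has no signalling motif of its own and pairs in the membrane with TYROBP, whose cytoplasmic tyrosine motif (ITAM) recruits the kinase SYK once phosphorylated. SYK then acts on PLCG2, a lipase that releases calcium and diacylglycerol signals, and on VAV1, an exchange factor for Rac proteins of the cytoskeleton. INPP5D, a lipid phosphatase, and PTPN6, a tyrosine phosphatase, restrain the pathway. Loss of TREM2 or TYROBP in people causes a brain and bone disease, and variants in TREM2, PLCG2 and INPP5D are linked to the risk of Alzheimer disease. TREM2 is largely myeloid and TYROBP also serves receptors of natural killer (NK) cells, while the other proteins act in B cells, T cells or both as well.

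The genes lie on 6 chromosomes of the mm10 build. In the GENCODE M21 annotation Trem2 spans chr17:48346401-48354147 and Vav1 chr17:57279100-57328031, Tyrobp spans chr7:30413760-30417585, Syk chr13:52583173-52648792, Plcg2 chr8:117498291-117635142 and Inpp5d chr1:87620312-87720507, all on the plus strand, and Ptpn6 spans chr6:124720707-124738714 on the minus strand. Ptpn6 overlaps the antisense gene Gm20531 and Plcg2 the microRNA gene Gm27361 on the opposite strand, and neither is in the count table. Because all 7 genes were higher than in PBS in the comparisons, the sequence before their start sites is shown for 4 of them. RefSeq promoter entries (build GRCm38.p6) were matched for 6 of the 7 genes, with 7 entries in all because Syk has 2. The 250 bases before the annotated start were searched on both strands for 3 motifs picked after the sequences were seen, namely GAGGAAGT (PU.1, the myeloid factor encoded by Spi1), CACGTG (an E-box) and GAAA followed by any 2 bases and GAAA (an interferon-regulatory-factor motif). Capitals mark a match. Inpp5d (chr1:87620062-87620311, plus strand) and Vav1 (chr17:57278850-57279099, plus strand) hold the PU.1 letters, Plcg2 (chr8:117498025-117498274, plus strand) holds the E-box, and Trem2 (chr17:48346151-48346400, plus strand), shown because it encodes the receptor, holds none of the 3.
Inpp5d: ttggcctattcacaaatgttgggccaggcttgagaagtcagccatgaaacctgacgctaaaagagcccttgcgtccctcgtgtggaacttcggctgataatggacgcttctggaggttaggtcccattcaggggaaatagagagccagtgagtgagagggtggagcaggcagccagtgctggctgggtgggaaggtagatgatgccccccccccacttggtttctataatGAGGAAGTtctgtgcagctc
Vav1: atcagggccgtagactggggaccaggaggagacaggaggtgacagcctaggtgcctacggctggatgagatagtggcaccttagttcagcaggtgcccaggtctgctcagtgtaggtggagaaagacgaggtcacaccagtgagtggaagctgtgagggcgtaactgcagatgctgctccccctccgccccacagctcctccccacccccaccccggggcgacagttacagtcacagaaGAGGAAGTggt
Plcg2: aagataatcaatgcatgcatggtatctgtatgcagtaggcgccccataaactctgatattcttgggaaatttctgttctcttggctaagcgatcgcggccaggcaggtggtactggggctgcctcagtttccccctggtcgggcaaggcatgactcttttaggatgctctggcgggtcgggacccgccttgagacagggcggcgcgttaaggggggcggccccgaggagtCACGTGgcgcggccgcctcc
Trem2: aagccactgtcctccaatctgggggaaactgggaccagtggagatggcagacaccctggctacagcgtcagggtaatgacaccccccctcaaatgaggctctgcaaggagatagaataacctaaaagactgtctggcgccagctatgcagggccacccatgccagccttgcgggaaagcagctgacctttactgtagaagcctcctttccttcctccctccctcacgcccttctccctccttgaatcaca
The PU.1 letters lie at bases -20 to -13 of the start in Inpp5d and at bases -11 to -4 in Vav1, in the same orientation as the gene. They were in 2 of the 7 entries, against 2.44% of all 32851 promoters in that window. The E-box, which reads the same on both strands, lies at bases -20 to -15 of Plcg2, in 1 of the 7 entries against 6.02% of promoters. The interferon-regulatory-factor letters were in 0 of the 7 entries, against 2.98% of promoters. PU.1 and E-box letters do not overlap in these windows, and a match describes the letters only.

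All 7 genes were higher in CBE than in PBS brains, by 2.74-fold (Plcg2) to 6.58-fold (Ptpn6). The receptor gene Trem2 rose 5.79-fold and the adaptor gene Tyrobp 5.50-fold. In edgeR's quasi-likelihood test all 7 passed at an adjusted p under 0.05 (Benjamini-Hochberg over all tested genes), where 11.0% of tested genes passed in either direction, 6.95% as higher and 4.04% as lower. The 4 CBE samples lay above the 4 PBS samples for 7 of 7 genes, while 15.6% of tested genes had no overlap between these groups and 8.61% had none with CBE higher. The median log2 fold change was 2.15 over the 7 genes and -0.01 over all tested genes. Because the genes were chosen with earlier results known, such counts, here and in the comparisons below, are a description and not a fresh test.

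**Figure D1:**
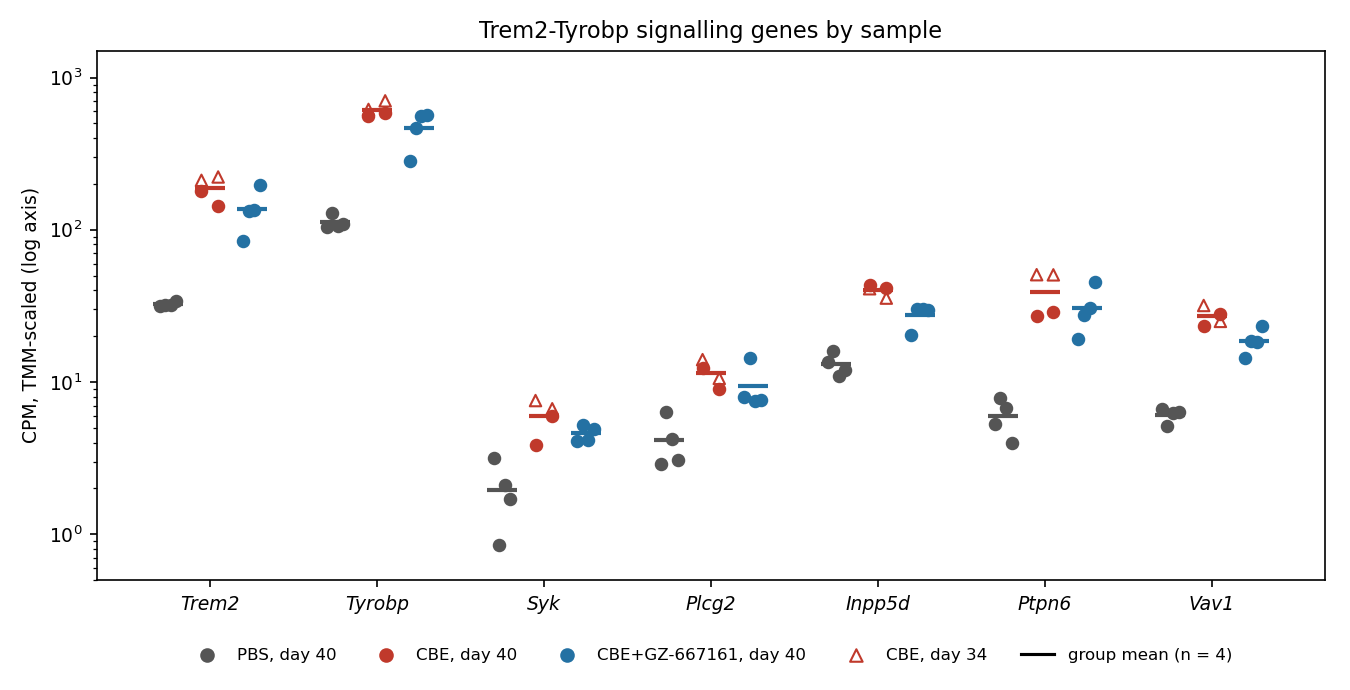
Level of each gene in every sample, in CPM (TMM-scaled) on a log axis (grey PBS, red CBE, blue CBE+GZ-667161, open triangles for the day 34 CBE samples, bars for the group mean of 4 samples). For all 7 genes the lowest CBE and CBE+GZ-667161 samples lie above the highest PBS sample, and the CBE+GZ-667161 mean lies between the others.

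Levels are given in CPM, counts scaled to the TMM-adjusted library size as edgeR computes them, in the order of replicates 2, 3, 4 and 5 for PBS and CBE+GZ-667161 and of replicates 2, 3, 4 and 6 for CBE. Trem2 was at 31.7, 32.1, 31.8 and 34.0 CPM in PBS and at 211, 222, 180 and 142 CPM in CBE. The PBS samples were close together, with a mean of 32.4 ± 1.06 CPM (SD, n = 4), and the day 34 samples were the higher ones within CBE (189 ± 35.9 CPM, SD, n = 4). The log2 fold change was 2.53 ± 0.21 (SE) with an edgeR adjusted p of 3.8e-07. Tyrobp was at 104, 129, 106 and 109 CPM in PBS and at 618, 703, 556 and 589 CPM in CBE, with no overlap. Its means were 112 ± 11.8 and 616 ± 63.1 CPM (SD, n = 4 each), and its log2 fold change was 2.46 ± 0.18 (SE, adjusted p = 1.5e-07).

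Syk, the kinase that binds the phosphorylated adaptor, was the member with the fewest reads, with 4 to 12 counts per PBS sample and 11 to 18 per CBE sample. It was at 3.17, 0.851, 2.09 and 1.69 CPM in PBS and at 7.54, 6.67, 3.85 and 5.96 CPM in CBE. The groups did not overlap, but the lowest CBE sample, replicate 4 of day 40, lay close above the highest PBS sample, replicate 2. The log2 fold change was 1.62 ± 0.39 (SE, adjusted p = 0.0125). Plcg2, with 10 to 30 counts per PBS sample, was at 2.91, 6.38, 4.19 and 3.08 CPM in PBS and at 14, 10.6, 12.3 and 8.94 CPM in CBE. PBS replicate 3 stood above the other controls, and the log2 fold change was 1.45 ± 0.33 (SE, adjusted p = 0.0075). Vav1 was at 6.61, 5.11, 6.28 and 6.31 CPM in PBS and at 31.8, 25.0, 23.5 and 28.1 CPM in CBE. Both groups of Vav1 were narrow (6.08 ± 0.665 and 27.1 ± 3.69 CPM, SD, n = 4 each), and the log2 fold change was 2.15 ± 0.20 (SE, adjusted p = 1.7e-06).

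The 2 phosphatases that restrain the pathway rose as well. Inpp5d was at 13.5, 16.0, 10.9 and 12 CPM in PBS and at 41.0, 35.5, 43.4 and 41.4 CPM in CBE, a log2 fold change of 1.61 ± 0.17 (SE, adjusted p = 8.1e-06). Its CBE samples had the smallest relative spread of the 7 genes in that group, with a coefficient of variation of 8.34%. Ptpn6 was at 5.29, 7.87, 6.70 and 4 CPM in PBS and at 50.7, 50.5, 27.0 and 28.8 CPM in CBE. Its CBE samples fell into a higher pair of day 34 and a lower pair of day 40, and the log2 fold change over the group was 2.72 ± 0.31 (SE, adjusted p = 1.5e-05). The fold changes of members whose standard errors are wide, Syk, Plcg2 and Ptpn6, are the least precise of the 7.

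The CBE group mixes ages, so the days were also fitted apart, with 2 samples each. CBE of day 34 against PBS gave 7 of 7 members higher, where 5.91% of tested genes passed and 5.04% were higher, and CBE of day 40 against PBS gave 6 of 7, where 14.2% passed and 8.15% were higher. Syk missed the threshold at day 40, with a log2 fold change of 1.36 ± 0.46 (SE, adjusted p = 0.063). Ptpn6 had a log2 fold change of 3.13 ± 0.30 at day 34 and 2.25 ± 0.31 at day 40 (SE), and Trem2 had 2.76 ± 0.23 and 2.30 ± 0.22. In the direct comparison of day 40 with day 34 none of the 7 passed in edgeR, DESeq2 or limma-voom, where edgeR called 0.613% of tested genes. Only Ptpn6 had an unadjusted p under 0.05 there (log2 difference -0.88 ± 0.33 SE, 95% interval -1.58 to -0.18, adjusted p = 0.22). By p it stood at rank 1035 of 13372 tested genes. For Trem2 the difference was -0.46 (95% interval -1.01 to 0.10), and for Inpp5d, the member with a positive value, it was 0.12 (-0.38 to 0.62). The labels give no batch, so day and any difference in handling between these samples cannot be told apart.

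Brains of mice that received GZ-667161 with CBE also held more of these transcripts than PBS brains. Against PBS 6 members rose, from 2.09-fold (Inpp5d) to 5.13-fold (Ptpn6), with Trem2 and Tyrobp both at 4.19-fold. In this comparison 3.45% of tested genes passed in either direction, and 3.11% were higher. All 7 genes were without overlap against PBS, as were 9.78% of tested genes, 6.65% with the treated group higher. The median log2 fold change was 1.60 over the 7 genes and -0.00 over all tested genes.

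Trem2 was at 84.1, 134, 135 and 196 CPM in CBE+GZ-667161, above every PBS sample and spread more widely than in the other groups (137 ± 45.6 CPM, SD, n = 4). Its log2 fold change against PBS was 2.07 ± 0.21 (SE, adjusted p = 8.6e-06). Tyrobp was at 285, 465, 558 and 572 CPM, a log2 fold change of 2.07 ± 0.18 (SE, adjusted p = 2.2e-06). Replicate 2 was the lowest sample of the group for 6 of the 7 members, and replicate 5 the highest for 4. Ptpn6 followed the same order, at 19.1, 27.5, 30.6 and 45.4 CPM, with a log2 fold change of 2.36 ± 0.31 (SE, adjusted p = 0.00010). Vav1 was at 14.3, 18.6, 18.2 and 23.2 CPM (log2 fold change 1.60 ± 0.20 SE, adjusted p = 7.4e-05). Inpp5d, at 20.4, 30.1, 30.3 and 29.8 CPM, had 3 samples close together and replicate 2 below them. Its log2 fold change was 1.06 ± 0.17 (SE, adjusted p = 0.00097).

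The kinase and the lipase gave less certain results with the inhibitor. Plcg2 was at 7.95, 14.3, 7.53 and 7.57 CPM, so that replicate 3 stood apart, and its log2 fold change against PBS of 1.18 ± 0.32 (SE) had an adjusted p of 0.0497 in edgeR. That call was lost in 19 of 24 alternative fits, among them the one without replicate 3 (0.90, adjusted p = 0.23), and its adjusted p ran from 0.0174 without PBS replicate 3 to 0.234. Syk was at 4.09, 5.20, 4.19 and 4.90 CPM, all above the PBS samples. Its log2 fold change of 1.26 ± 0.38 (SE) missed the threshold (adjusted p = 0.10) and passed without PBS replicate 2 (1.62, adjusted p = 0.048). In the table deposited by the authors, all 7 members have an adjusted p under 0.05 for CBE and PBS, and 6 of 7 for CBE+GZ-667161 and PBS, Syk being the exception there too with 0.0572.

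Set directly against CBE, all 7 genes had lower fitted levels with the inhibitor, by 1.21-fold (Plcg2) to 1.47-fold (Vav1), and none passed the test. The count of members with an adjusted p under 0.05 was 0 in edgeR, DESeq2 and limma-voom, where edgeR called 1.28% of tested genes in either direction and 0.832% as lower. There were 4 members with an unadjusted p under 0.05, of which Tyrobp had the largest p and stood at rank 1650 of 12623 tested genes. At least 1650 tested genes thus had such a p, and the 4 members are to be read against that number. Inpp5d and Vav1 had no overlap between the CBE and the CBE+GZ-667161 samples, as had 8.09% of tested genes (3.98% with CBE higher), with log2 differences of -0.55 ± 0.17 (SE, 95% interval -0.90 to -0.20, adjusted p = 0.11) and -0.56 ± 0.19 (-0.95 to -0.16, adjusted p = 0.14). Trem2 differed by -0.47 ± 0.19 (-0.88 to -0.06, adjusted p = 0.24) and Tyrobp by -0.39 ± 0.17 (-0.75 to -0.03, adjusted p = 0.26). For Syk, Plcg2 and Ptpn6 the intervals reached from -1.13 to 0.40, from -0.91 to 0.37 and from -0.93 to 0.21. These last intervals include 0, and a p that misses the threshold does not show that the levels were alike. Because CBE+GZ-667161 was sampled at day 40 alone, the comparison was repeated without the day 34 CBE samples, which gave -0.61 for Inpp5d (adjusted p = 0.092), -0.49 for Vav1, -0.28 for Tyrobp and -0.24 for Trem2. Ptpn6 changed sign in that fit, to 0.11 (adjusted p = 0.87). The comparisons with PBS share the PBS samples, and the comparison of the treated groups shares samples with both.

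**Figure D2:**
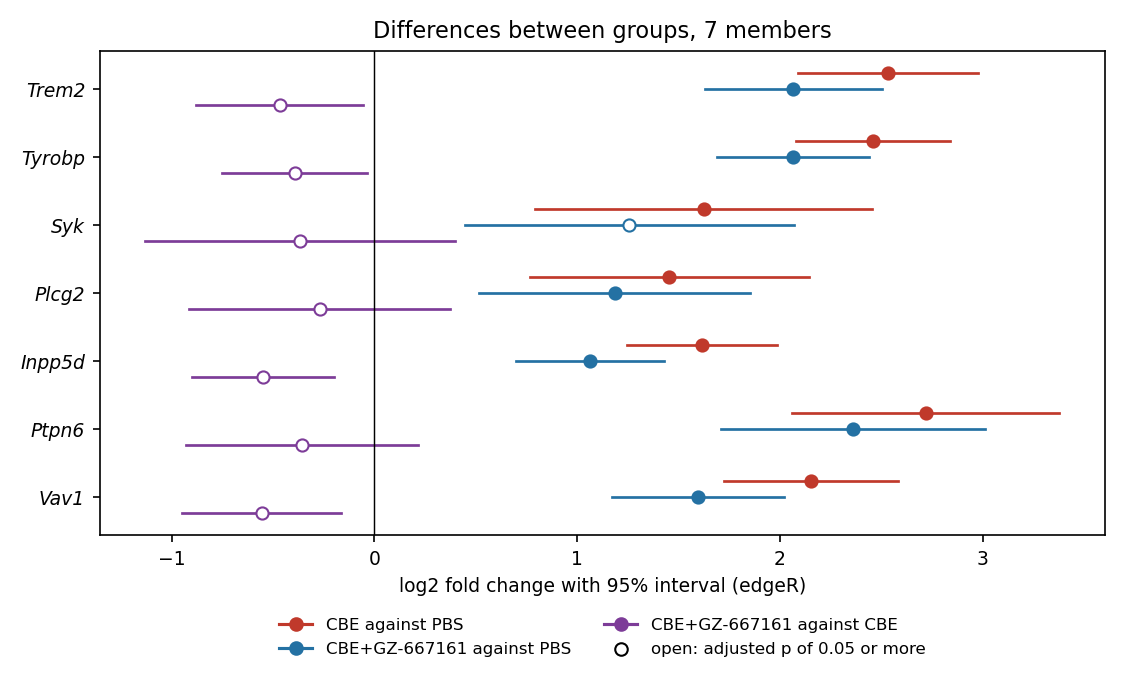
Log2 fold change of each gene with its 95% interval from edgeR, for CBE against PBS (red), CBE+GZ-667161 against PBS (blue) and CBE+GZ-667161 against CBE (purple), with open circles for an adjusted p of 0.05 or more. The red and blue intervals lie to the right of 0 for all 7 genes, while the purple ones lie between -1.13 and 0.40, and those of Syk, Plcg2 and Ptpn6 cross 0.

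No difference between groups was found in the proportion of the receptor to its adaptor. The ratio of Trem2 to Tyrobp CPM was 0.305, 0.248, 0.302 and 0.313 in PBS, 0.342, 0.316, 0.323 and 0.242 in CBE, and 0.295, 0.288, 0.242 and 0.342 in CBE+GZ-667161. The 3 groups overlapped over nearly their whole range, with means of 0.292 ± 0.0294, 0.306 ± 0.0440 and 0.292 ± 0.0411 (SD, n = 4 each). On the log2(CPM + 1) scale the difference was 0.04 for CBE minus PBS (exact permutation p = 0.714, two-sided, 95% interval -0.39 to 0.43). It was -0.03 for CBE+GZ-667161 minus PBS (exact permutation p = 0.80, interval -0.39 to 0.43) and -0.06 for CBE+GZ-667161 minus CBE (exact permutation p = 0.629, interval -0.50 to 0.50). With 4 samples a group the smallest p this test can give is 0.0286, and the intervals leave room for a shift in either direction.

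Depth and the summed levels of cell type genes varied between samples. Total counts ran from 1758446 to 6521257, lowest in the 2 day 34 CBE samples, and replicates differed by more than counting error (chi-square divided by its degrees of freedom, 3.29 to 12.2). In whole-brain RNA more cells of a type and more RNA per cell cannot be told apart. A list of 12 microglia genes, of which 11 were tested, had a summed level of 471 to 510 CPM in PBS, 726 to 1409 CPM in CBE and 735 to 1021 CPM in CBE+GZ-667161. Of the 11, 5 rose in CBE, among them Aif1 (log2 fold change 2.04) and Csf1r (0.97), whereas P2ry12 was at 0.06 (adjusted p = 0.93). There were 5 that rose in CBE+GZ-667161 as well, and the median of the 11 was 0.81 in each comparison with PBS. Gpr34, which was too low to be tested, was at 0 in 2 of the 4 CBE samples (0 to 2 counts), and no other gene of this list was at 0 in any sample. In the fits by day 8 of the 11 rose at day 34 and 3 at day 40 against PBS. Lists of other cells gave the following summed levels. Border macrophage and monocyte genes, of which Ms4a7 alone of 6 tested rose in each comparison with PBS, had 23.2 to 36.8 CPM in PBS, 35.4 to 67.9 in CBE and 28.4 to 50.8 in CBE+GZ-667161. T and NK cell genes, of which 1 of 6 was tested in the fit of 3 groups and not called, had 0.838 to 3.83 CPM in PBS, 3.64 to 14.4 in CBE and 4.77 to 14.4 in CBE+GZ-667161. The T-cell gene Cd3d was at 0 in all 4 CBE samples, but also at 0 in 2 of the 4 PBS samples (0 to 1 counts). Other T-cell genes of the list were present in CBE, with 1 to 3 counts per sample for Cd8a and 7 to 16 for Lck, against 0 to 2 and 2 to 14 in PBS. CBE+GZ-667161 samples had 2 to 14 counts for Cd8a, 10 to 27 for Lck and 0 to 5 for Cd3d. These counts are not scaled to depth, which differed between the samples. The cytotoxic-granule gene Nkg7, made by NK and cytotoxic T cells, passed the filter on low counts only in the fit by day, where 2 genes of that list were tested. It had 0 to 2 counts per PBS sample, 2 to 9 per CBE sample and 1 to 12 per CBE+GZ-667161 sample. A filter passed only with smaller groups favours genes high in 1 of them, so its call as higher at day 34 against PBS is not read as a result. B cell genes, mostly Ighm, had 30.9 to 54.9 CPM in PBS, 17.9 to 55.5 in CBE and 57.3 to 104 in CBE+GZ-667161. Within CBE their sum was 55.5 and 52.2 CPM at day 34 and 18.6 and 17.9 CPM at day 40. In the fit by day 1 of 2 B cell genes tested was lower at day 40 than in PBS, and 1 of 2 was lower than at day 34. Neutrophil genes had 2.91 to 26, 1.67 to 11.2 and 8.45 to 30.3 CPM. Neuron genes had 4968 to 5169 CPM in PBS, 3499 to 4685 in CBE and 4079 to 4975 in CBE+GZ-667161, and 3 of 6 fell in CBE. Astrocyte genes had 3480 to 4113, 3779 to 4157 and 3579 to 3801 CPM. Of 6 astrocyte genes Slc1a3, Aqp4 and Aldh1l1 rose in CBE, and Slc1a3 and Aldoc were lower with GZ-667161 than with CBE alone. Oligodendrocyte genes, none of 6 called, had 5541 to 6865 CPM in PBS, 2855 to 5790 in CBE and 3465 to 7976 in CBE+GZ-667161. Endothelial genes had 163 to 188, 116 to 186 and 164 to 231 CPM, and Flt1, 1 of 4, fell in CBE and was higher with GZ-667161 than with CBE alone. Erythroid genes had 1964 to 4037, 1249 to 1734 and 1414 to 3910 CPM, and Hbb-bt, 1 of 5, fell in CBE. Xist was at 7.96 CPM or more in 2 PBS, 0 CBE and 3 CBE+GZ-667161 samples and at most 0.555 CPM in the others, and with Xist as a term 7, 5 and 0 members passed in the 3 comparisons. No CBE sample was high in Xist, so that term is partly confounded with group. The shares of all tested genes given above come from the fit without it. What part these differences play in the members' values was not tested.

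To set the members beside the microglia genes, their counts were also expressed per 1000 counts of the microglia list, as a description with no test. Trem2 was at 65.3, 67.1, 62.4 and 72.2 per 1000 in PBS, at 181, 158, 244 and 196 in CBE and at 114, 131, 163 and 200 in CBE+GZ-667161, so the treated samples again lay above the PBS samples. Means rose 2.92-fold in CBE and 2.28-fold in CBE+GZ-667161 on this scale, against 5.79-fold and 4.19-fold in the fit of CPM. Tyrobp changed 2.82-fold and 2.28-fold, Ptpn6 3.18-fold and 2.78-fold, and Vav1 2.31-fold and 1.67-fold, all without overlap with PBS. Syk (1.54-fold and 1.29-fold), Plcg2 (1.42-fold and 1.22-fold) and Inpp5d (1.63-fold and 1.15-fold) overlapped with PBS in both groups. The scale also altered the order of the CBE ages. In CPM the day 34 samples lay above the day 40 samples for Trem2, Tyrobp, Syk and Ptpn6, but per 1000 microglia counts the day 40 samples lay above for Trem2, Tyrobp, Plcg2, Vav1 and Inpp5d, the last at 35.2 and 25.2 at day 34 against 59.1 and 57.0 at day 40. The microglia list itself stood at 1164 and 1409 CPM at day 34 and at 735 and 726 CPM at day 40, and 3 of its genes, Csf1r, Itgam and Fcrls, were lower at day 40 (log2 differences -0.71, -1.43 and -1.61).

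**Figure D3:**
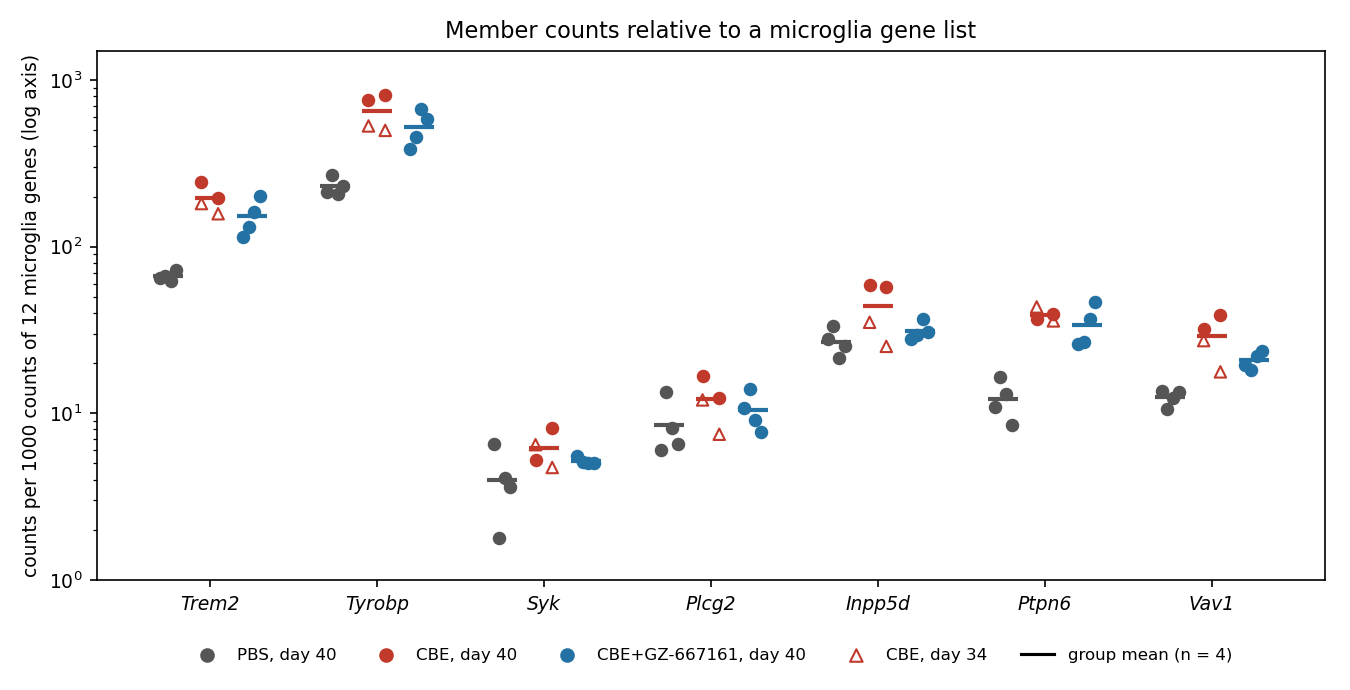
Counts of each gene per 1000 counts of 12 microglia genes in every sample, on a log axis, with symbols as in the plot of levels by sample. Trem2, Tyrobp, Ptpn6 and Vav1 stay apart from PBS in both treated groups, Syk, Plcg2 and Inpp5d overlap with it, and the day 34 CBE samples (open triangles) lie lowest within CBE for Trem2, Tyrobp, Plcg2, Inpp5d and Vav1.

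The other genes of the pathway were followed in 7 lists, with 91 genes tested. In CBE against PBS 33 rose and 3 fell, and in CBE+GZ-667161 against PBS 24 rose and 0 fell, with medians of 0.35 and 0.28 on the log2 scale. Among the 33 are Clec7a, Cd300lf and Lilr4b, which had 2 counts each over the PBS samples. They passed the filter on low counts only through treated samples, which favours genes high there. Their calls are therefore not read as results, although they enter the list counts and medians. Of all tested genes 6.95% were called higher and 4.04% lower in CBE against PBS, and 3.11% and 0.333% in CBE+GZ-667161 against PBS, the shares against which the count of each list is to be read. Of 5 other receptors and adaptors, not all of the ITAM type, 3 rose in CBE (median 2.45) and 4 in CBE+GZ-667161 (median 1.76). Fcer1g, the ITAM subunit of Fc receptors, changed by 2.61 ± 0.19 and 2.07 ± 0.19 on the log2 scale (SE, adjusted p = 1.5e-07 and 3.6e-06). Hcst, an adaptor without an ITAM that is encoded next to Tyrobp, changed by 2.45 ± 0.41 and 1.60 ± 0.41. Clec7a, a receptor for fungal glucans that signals through SYK, had 2 counts over the 4 PBS samples, 173 over the CBE and 129 over the CBE+GZ-667161 samples. Its depth-scaled ratio to PBS was 157 in CBE (95% interval 42.9 to 1308, counting error only) and 70.3 in CBE+GZ-667161 (19.1 to 587). Clec5a, another TYROBP partner, rose in CBE+GZ-667161 (1.76 ± 0.40, SE) and was not called in CBE. All 5 genes of this list had positive log2 fold changes in CBE too, and none passed between the treated groups.

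Of 14 genes for TREM2 ligands, shedding enzymes and MS4A proteins, 6 rose in CBE and 4 in CBE+GZ-667161. Lgals3, a galectin reported to bind TREM2, changed by 6.34 ± 0.45 and 4.44 ± 0.45 (SE), the lipoprotein gene Apoe by 1.19 ± 0.11 and 0.55 ± 0.11, and Ms4a6c by 3.24 ± 0.31 and 2.49 ± 0.31. Clu, which encodes a further lipoprotein ligand, rose in CBE (0.76 ± 0.10). Ms4a6c and Ms4a6d belong to a family of similar genes, so reads may have been split between them. Of these ligand genes 3 were lower with GZ-667161 than with CBE alone: Lgals3 by -1.89 ± 0.32 (SE, adjusted p = 0.0125), Apoe by -0.65 ± 0.11 (adjusted p = 0.0109) and Clu by -0.48 ± 0.10 (adjusted p = 0.0316). In that comparison 0.832% of tested genes were called lower. No gene of the pathway lists was called in it with Xist as a term, or without the day 40 CBE samples. Whether the members and the ligands differ in this response was not tested.

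Among 24 kinases and adaptors close to the receptor, 8 rose in CBE and 6 in CBE+GZ-667161, with medians of 0.50 and 0.48. They include the adaptors Blnk (1.36 ± 0.18 and 1.19 ± 0.17, SE) and Lat2 (2.57 ± 0.38 and 2.30 ± 0.38), and the kinase Btk (2.91 ± 0.48 and 2.98 ± 0.46). Prkcd, a diacylglycerol-responsive kinase, rose in CBE (1.38 ± 0.22). None of the 24 passed between the treated groups, where Prkcb was at 0.25 and Rac1 at -0.02. Inhibitory receptors, related receptors and phosphatases other than the 2 members gave 7 of 12 higher in CBE and 5 of 12 in CBE+GZ-667161. The 7 include Cd300lf and Lilr4b, which passed the filter on low counts only through treated samples and are not read as results. Lilrb4a, an inhibitory immunoglobulin-like receptor, changed by 5.41 ± 0.36 and 3.81 ± 0.38 (SE) and was lower with GZ-667161 than with CBE alone (-1.60 ± 0.26, adjusted p = 0.0101). Its near-identical neighbour Lilr4b may share reads with it, and had 2 counts over the PBS samples against 94 over CBE and 40 over CBE+GZ-667161. The depth-scaled ratios of Lilr4b to PBS were 85.4 (95% interval 23.0 to 716, counting error only) and 21.8 (5.65 to 186). Cd300lf, with 2 PBS counts, had ratios of 73.6 (19.7 to 618) and 20.7 (5.35 to 177), Cd22 changed by 4.25 ± 0.59 and 3.50 ± 0.60, and Pirb rose in CBE+GZ-667161 (1.99 ± 0.44).

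In CBE against PBS 2 of 14 genes of the lipid kinase list and 3 of 14 of the calcium list passed, where 11.0% of all tested genes did. Of 14 genes of the PI3K and AKT branch 1 rose and 1 fell in CBE, namely Pik3cg, the catalytic subunit of leukocytes (2.04 ± 0.50, SE), and Pdpk1 (-0.49 ± 0.15), and none passed in CBE+GZ-667161, where Akt1 was at -0.03 and Pik3r2 at -0.27. Of 14 genes of calcium release and NFAT signalling Nfatc1 rose (1.26 ± 0.32) and Rasgrp1 (-0.43 ± 0.12) and Itpr1 (-0.66 ± 0.18) fell in CBE, and none passed in CBE+GZ-667161, where the calcineurin subunits Ppp3ca and Ppp3cb were at 0.00 and -0.01. Itpr1, a calcium-release channel abundant in Purkinje neurons, was higher with GZ-667161 than with CBE alone (0.88 ± 0.18, adjusted p = 0.0316), although the samples of these groups overlapped. Of 8 myeloid transcription factors 7 rose in CBE and 5 in CBE+GZ-667161 (medians 1.57 and 1.18). Spi1, which encodes PU.1, changed by 1.62 ± 0.26 and 1.45 ± 0.25 (SE), Irf8 by 2.46 ± 0.23 and 2.13 ± 0.23, Runx1 by 2.51 ± 0.26 and 2.05 ± 0.26 and Cebpa by 1.60 ± 0.18 and 0.92 ± 0.18, while Mef2c, which neurons also express, was at -0.50 in CBE. Between the treated groups 1 of the 91 genes was higher and 4 were lower, against 0.444% and 0.832% of all tested genes, a count that ran from 0 to 10 called genes over the alternative fits.

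**Figure D4:**
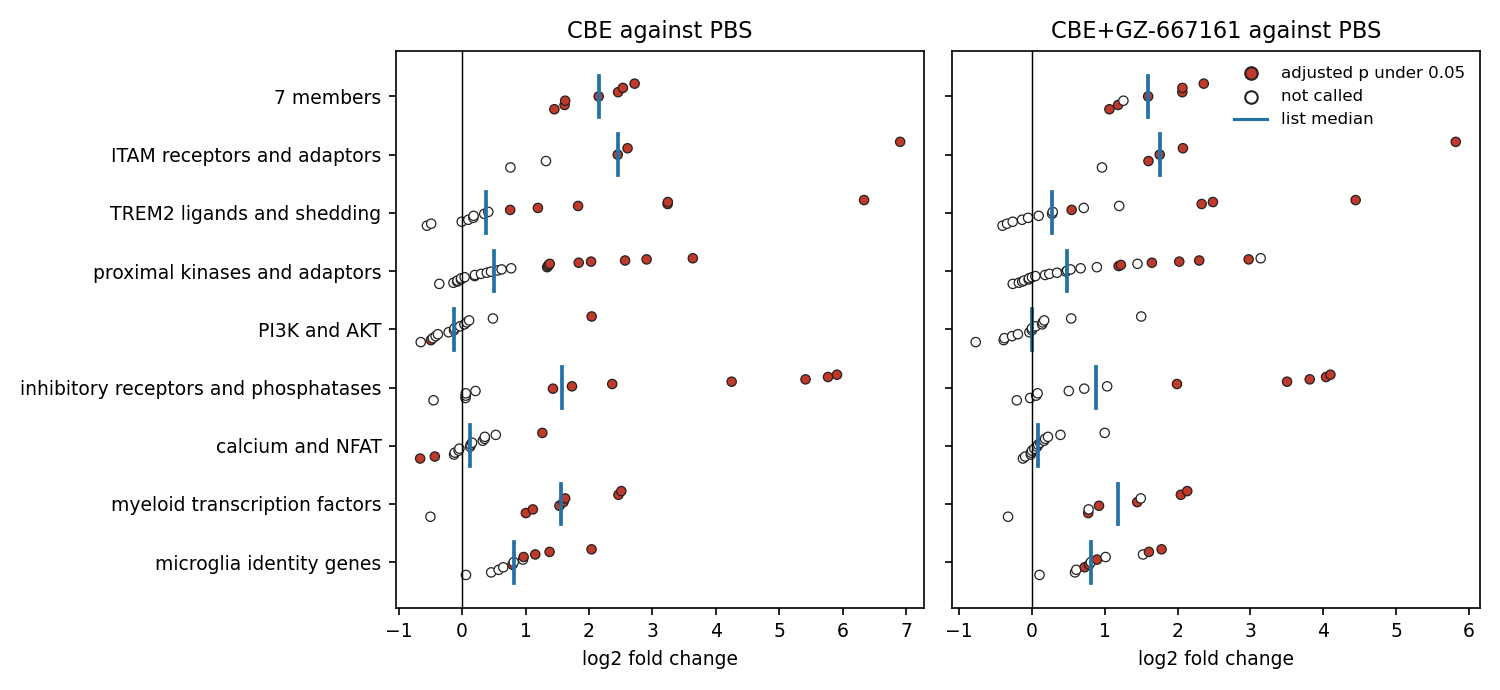
Log2 fold change against PBS of every tested gene of the 7 members, the 7 pathway lists and the microglia list (each point 1 gene, filled at an adjusted p under 0.05, blue bar for the list median), for CBE (left) and CBE+GZ-667161 (right). Points for Clec7a, Cd300lf and Lilr4b are fitted values and not bounds. These genes had 2 counts each over the PBS samples, passed the filter on low counts only through treated samples, and are not read as results. The medians of the members lie at 2.15 and 1.60, against 0.81 for the microglia list in each comparison.

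The profiles most like those of the receptor and its adaptor were found among all tested genes by the root mean square difference in log2 CPM, after each gene was centred on its mean over the 12 samples. For Trem2 the nearest were Fcer1g (0.136), C1qa (0.157), Tyrobp (0.171), Ctsz (0.192) and C1qb (0.195), and for Tyrobp they were C1qa (0.140), Ctss (0.154), Fcer1g (0.155), H2-D1 (0.161) and Trem2 (0.171). C1qa and C1qb encode chains of complement C1q, Ctsz and Ctss lysosomal cathepsins, and H2-D1 a class I histocompatibility antigen. Among the other members Ptpn6 stood at rank 18 from Trem2 (0.277) and Vav1 at rank 26 (0.310), whereas Inpp5d (rank 153), Syk (256) and Plcg2 (288) lay farther away. These distances describe the 12 libraries, and why some members lie farther away was not tested.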

How the data were processed

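RNA of 12 whole-brain samples was sequenced by a bulk variation of MARS-seq, per the labels' protocols. The deposited counts are raw whole numbers, 1 per gene symbol and sample. The submitters' processing notes name cutadapt, HISAT 0.1.6, HTSeq, DESeq2 and the build mm10, without role or order, and for annotation, strand and molecular identifiers the sources used here give nothing. The authors' normalized signal, also deposited, equals the count times 1 constant per library and was not used. The authors' deposited table of log2 fold changes and p-values, in which a log2 value is the group named at the start minus the other, was used only where it is named.

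Of 16505 table entries, 23 with a date in place of a symbol (0.266% to 0.347% of counts) were left out. The filter was filterByExpr at a minimum count of 10 and a minimum total of 15. Counts were scaled with TMM and tested in 1 fit of 3 groups of 4 samples with edgeR 4.0.16 (glmQLFit and glmQLFTest, Benjamini-Hochberg adjustment, threshold 0.05), and the CBE days in a fit of 4 groups over 13372 genes. Levels are CPM as edgeR computes them. The Trem2 to Tyrobp ratio was tested by exact permutation (pseudocount 1). The fit was checked on simulated data. Sequences come from RefSeq, and positions from GENCODE M21, matched by symbol. The members and lists were chosen with earlier results of these data known, and the lists are described by counts and medians with no test of the list. From each list and comparison up to 4 passing genes with the smallest p were named, or the 2 of highest mean CPM where none passed, and the 5 genes nearest to Trem2 and to Tyrobp. Some genes that these rules select are not reported here. Btk in CBE, the genes named from the lists of cell types, and Mef2c in CBE were named after their values were seen. Alternatives tried were size factors of DESeq2 or upper quartiles, no filter or a minimum count of 30, DESeq2 1.42.0, limma-voom (limma 3.58.1), a threshold of 0.01, fits of fewer samples, and Xist or replicate number as terms. R 4.3.3, Python 3.11.15 and scipy 1.17.1 were used.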

Additional observations from a re-analysis of the deposited data

Results flagged for a closer look

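In 3 of the 21 combinations of gene and group, 1 sample stood apart from the other 3 by more than Dixon's 95% critical value for 4 samples, on the gap to the nearest sample divided by the group's range. Chance gives about 1 in 20. Trem2 in PBS had a ratio of 0.833, with replicate 5 at 34.0 CPM and the others at 31.7 to 32.1 CPM, a narrow group. Plcg2 in CBE+GZ-667161 had a ratio of 0.938, with replicate 3 at 14.3 CPM and the others at 7.53 to 7.95 CPM, from 66 counts in that sample against 17 to 36. Inpp5d in CBE+GZ-667161 had a ratio of 0.950, with replicate 2 at 20.4 CPM and the others at 29.8 to 30.3 CPM. Without that sample the Inpp5d difference from CBE was -0.42 on the log2 scale (edgeR adjusted p = 0.24), against -0.55 with it.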

How the results depend on the processing

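Members were called in 5 to 7 cases of CBE against PBS over the alternatives, in 5 or 6 of CBE+GZ-667161 against PBS, and in 0 of CBE+GZ-667161 against CBE and of day 40 against day 34. Single genes kept their side of the threshold in 163 of 166, 147 of 167, 167 of 167 and 139 of 139 values. In the last 2 of these comparisons no member had passed, and most alternatives use fewer samples or a stricter threshold. A change of sign with neither fit passing counts as kept, as for Ptpn6 between the treated groups (-0.36 to 0.11). These 2 tallies therefore say little about stability. Plcg2 in CBE+GZ-667161 against PBS made up the 19 losses of that comparison, with adjusted p of 0.053 with DESeq2 size factors, 0.052 with upper-quartile scaling, 0.057 without a filter and 0.089 with only the groups compared. Syk in CBE lost its call without the day 34 samples (1.35, adjusted p = 0.080) and at 0.01. A minimum count of 30 removed Syk from the test.

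Same-numbered samples did not deviate together (r from -0.078 to 0.24), so the replicate block is only an alternative. With the replicate block 5 of 6 tested members were called in CBE against PBS (Plcg2 lost, 1.48, adjusted p = 0.064), 6 in CBE+GZ-667161 against PBS and 0 between the treated groups, and 25, 21 and 2 other pathway genes. The count of other pathway genes in CBE+GZ-667161 against CBE, 5 in the report, was 10 with DESeq2, 8 with limma-voom, 0 at 0.01, 3 with only the groups compared, 8 without the day 34 and 0 without the day 40 CBE samples, and 0 with the Xist term, and ran from 0 to 7 with 1 sample left out. The count for CBE+GZ-667161 against PBS was 15 of 71 tested genes at a minimum count of 30, against 24. With 1 sample left out it ran from 19 to 27, and that for CBE against PBS from 30 to 37. The Trem2 to Tyrobp difference ran from -0.25 to 0.18 over the alternatives. Only those with another pseudocount could reach the threshold, and they did not (exact permutation p from 0.514 to 1). With 1 sample left out the smallest possible p is 0.0571, without the CBE samples of a day 0.133, and in the replicate block 0.125 or 0.25, so these say nothing about stability. Apart from fewer genes or samples in some fits, the cause of these changes was not tested. Counts of 4 to 30 per PBS sample limit Syk and Plcg2.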

Other observations

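The profiles nearest to the other 5 members, by the same distance over the 12 samples, were looked up after the values were seen. Vav1 lay nearest to Pld4 (0.149), Grn (0.192), C1qc (0.208), C1qb (0.210) and Laptm5 (0.216), which encode lysosomal or complement proteins. Inpp5d lay nearest to Ctsl (0.154), Naglu (0.166), Clic1 (0.172), Cebpa (0.195) and Lgmn (0.196), of which Ctsl, Naglu and Lgmn encode lysosomal enzymes. Ptpn6 lay nearest to Lyz2 (0.225), C1qa (0.241), Pycard (0.276), Lat2 (0.277) and Trem2 (0.277). The genes nearest to Plcg2, namely Rnaset2a (0.299), Wdfy4, Blnk, Spi1 and Fes (0.331), and to Syk, of which Pros1 was the nearest (0.259), were less close, and both members had few counts.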
